A study of Mus musculus with 2 samples.

Results

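Ribosomal protein genes were examined for sites of KLF4, a transcription factor with zinc fingers, called from immunoprecipitated chromatin of mouse atherosclerotic lesions. The members are the protein-coding genes of the RefSeq annotation whose symbol is Rpl or Rps with a number and at most 1 of the letters a, l, x or y, together with Rplp0, Rplp1, Rplp2 and Rpsa. The rule took in 81 of 21887 protein-coding genes on the chromosomes, 50 of the large ribosomal subunit and 31 of the small one. It leaves out the Rps6k kinases and the pseudogene copies, which are described separately. The family was selected on its number of WT peaks, among other gene families, so the counts of members with a peak describe the choice and no test was run on them.

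The measurement was chromatin immunoprecipitation with sequencing, in which DNA held by an antibody's target is recovered and sequenced, on frozen BCA tissue of C57BL/6 mice fed a Western diet. One group was labelled WT and the other KO, each with 1 library, from the same strain, diet and antibody. The labels do not name the deleted gene, the promoter that would drive a deletion, the age of the animals or how many animals gave tissue, and the abbreviation BCA is not spelled out. They describe a mixed tissue that includes smooth muscle, epithelial and macrophage cells, so a site used in few cells and a site weakly used in many cannot be told apart. The deposited lists held 2251 WT peaks and 1153 KO peaks, and the depth of the libraries is unknown. Among cell type markers, 4 of 7 smooth muscle genes held a WT peak in their span, where 3.79% of all protein-coding genes did. The counts were 0 of 5 macrophage, 1 of 4 epithelial, 0 of 3 endothelial and 0 of 2 T cell genes. Within 10 kb, 2 of the macrophage genes had a WT peak, where 6.22% of all protein-coding genes did. Acta2 (59.6) and Tagln (67.5) scored below the WT list median of 88.3, and Myl9 (117) and Tpm2 (273) above it. In KO, Krt19 (epithelial) and Cd2 (T cell) each held a peak in the span, where 1.63% of all protein-coding genes did. Peaks do not measure expression, so these counts do not check the makeup of the tissue.

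Ribosomal proteins are the structural proteins of the ribosome, and their genes are active in nearly every cell. The genes are short, their mRNAs typically begin with a run of pyrimidines that ties their translation to nutrient signals, and several carry small nucleolar RNAs in their introns. Copies of their mRNAs have been inserted across mammalian genomes many times, which left a large family of processed pseudogenes. KLF4 recognises GC-rich and CACCC-containing DNA and takes part in the switch of smooth muscle cells away from the contractile state.

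The promoters of 4 members are shown because the WT peaks of these members lay nearest to the outermost listed transcript start. Each sequence, from the RefSeq promoter table of GRCm38.p6, runs from 250 bases before the start through the first 20 transcribed bases. Capitals mark matches to CACCC, a KLF-like core, or to CTTCCG, an ETS-like core, on either strand.
Rps7 (chr12:28635934-28636203, minus strand): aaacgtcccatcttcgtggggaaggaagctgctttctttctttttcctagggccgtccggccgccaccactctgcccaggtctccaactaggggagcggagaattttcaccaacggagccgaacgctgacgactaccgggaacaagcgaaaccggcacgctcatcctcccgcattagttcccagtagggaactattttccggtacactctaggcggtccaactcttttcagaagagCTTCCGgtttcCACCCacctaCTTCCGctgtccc
Rplp0 (chr5:115559217-115559486, plus strand): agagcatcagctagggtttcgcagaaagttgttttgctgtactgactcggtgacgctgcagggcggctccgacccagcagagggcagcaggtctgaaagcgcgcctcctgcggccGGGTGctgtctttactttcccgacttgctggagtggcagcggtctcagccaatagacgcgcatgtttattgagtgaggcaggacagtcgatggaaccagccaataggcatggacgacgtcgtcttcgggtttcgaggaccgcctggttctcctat
Rpl31 (chr1:39367601-39367870, plus strand): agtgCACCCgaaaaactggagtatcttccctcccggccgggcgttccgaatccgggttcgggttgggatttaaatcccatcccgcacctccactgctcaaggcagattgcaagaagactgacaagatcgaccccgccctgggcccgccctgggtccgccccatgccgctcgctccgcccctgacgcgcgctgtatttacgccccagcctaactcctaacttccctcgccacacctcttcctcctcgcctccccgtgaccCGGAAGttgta
Rpl10a (chr17:28328221-28328490, plus strand): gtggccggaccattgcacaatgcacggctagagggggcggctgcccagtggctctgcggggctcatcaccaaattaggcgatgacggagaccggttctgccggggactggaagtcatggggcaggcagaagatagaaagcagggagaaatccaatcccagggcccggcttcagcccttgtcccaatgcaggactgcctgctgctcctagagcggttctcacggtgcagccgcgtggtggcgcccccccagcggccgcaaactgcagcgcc
Rps7, Rplp0 and Rpl31 each hold 1 match to CACCC in this window, and Rpl10a holds 0. Rps7 holds 2 matches to CTTCCG, Rpl31 holds 1, and Rplp0 and Rpl10a hold 0. The near edge of the WT peak lay 217 bp after the start in Rps7, 303 bp in Rplp0, 304 bp in Rpl31 and 340 bp in Rpl10a, beyond the printed bases. Rpl10a has 2 listed starts, and the outer one is shown.

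Peaks in the genes' own spans were listed in WT, while the KO list, with few genes of any kind, had none there. Of the 81 members, 15 (18.5%) held a WT peak midpoint in the span and 0 held a KO peak midpoint. Over all protein-coding genes, 3.79% of spans held a WT peak and 1.63% a KO peak. Members are short, with a median span of 3175 bp against 17169 bp for all protein-coding genes. Among the 8797 protein-coding genes no longer than the longest member, 2.47% held a WT peak, and the KO share over these genes was not taken. Each of the 15 members held exactly 1 WT peak, and none of these peaks lay in the span of another annotated gene.

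A KO peak overlapped 0 of these 15, and 6.57% of the 1264 WT peaks in protein-coding spans. With only 15 peaks, 0 lies near that share and is not read as a trait of the family. The KO peak nearest to such a WT peak lay 5.87 kb away at Rpl4, and the median distance over the 15 peaks was 1895 kb. With a single library per genotype, these are differences between 2 lists, and a missing KO peak says only that none passed the authors' threshold.

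**Figure D1:**
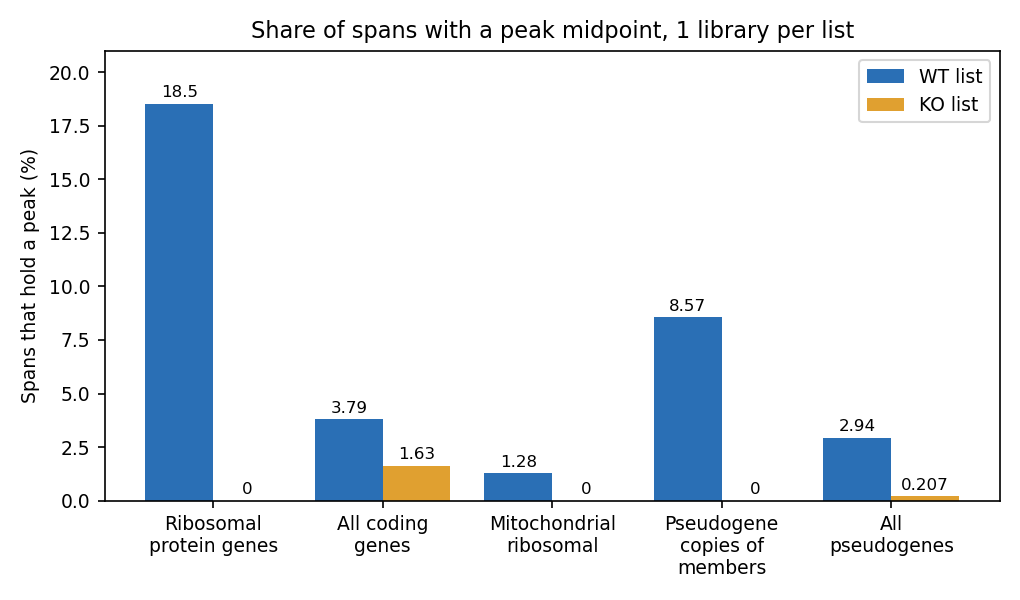
Percent of spans (vertical axis) that held a peak midpoint in the WT list (blue) and the KO list (orange), for ribosomal protein genes, all protein-coding genes, mitochondrial ribosomal protein genes, pseudogene copies named after members, and all pseudogenes. The WT bar of the ribosomal protein genes stands at 18.5% and their KO bar at 0; there is 1 library per list and so no error bar.

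The scores of the 15 peaks spread around the middle of the WT list. The deposited score, taken to be the negative log10 of a p-value multiplied by 10, was used to rank peaks within a list. The lowest was 54.9, the median 88.9 and the highest 209, against a median of 88.3 for the whole WT list. The best-ranked of them stood at place 345 of 2251. Of the 15, 8 scored above the list median, 2 equalled it and 5 scored below. They were narrow, from 62 to 216 bp with a median of 136 bp, compared with 156 bp over the WT list.

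Genes for proteins of the large subunit's stalk, which recruits translation factors, were among those with a WT peak. Rplp0, the stalk base protein (gene 11837, chromosome 5, 115559467 to 115563729), had a peak at 115559770 to 115559894 with a score of 146. Rplp1, an acidic stalk protein (chromosome 9, 61913283 to 61914510), had a peak at 61914369 to 61914538 with a score of 179. This peak ran across the upper end of the annotated span, the only one of the 15 to do so. Rplp2, the partner of Rplp1 in the stalk, had no peak within 10 kb.

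The remaining large subunit genes held both the highest and some of the lowest scores. Rpl37a, a protein of the large subunit, had the highest score of the family, 209, at 72711707 to 72711800 on chromosome 1. Rpl10a, which forms the mobile stalk near the exit site of the ribosome, followed with 203 at 28328811 to 28328889 on chromosome 17. These peaks were 94 and 79 bp wide, below the WT list's median width of 156 bp. Rpl13a, also known as a translational silencer in inflammation, had a peak with a score of 112 at 45127219 to 45127366 on chromosome 7. Rpl4, which lines the tunnel for the growing peptide, had one with a score of 105 at 64175193 to 64175359 on chromosome 9. Both lay above the list median of 88.3. Rpl24, at the interface of the subunits, scored 88.3 at 55967060 to 55967160 on chromosome 16. Rpl30 scored 78.4 at 34442604 to 34442793 on chromosome 15. Rpl31 scored 57.8 at 39368155 to 39368290 on chromosome 1, near the bottom of the list at percentile 14.1.

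Of the small subunit genes, Rps19 scored highest. Rps19, whose human counterpart is mutated in Diamond-Blackfan anaemia, had a peak of 62 bp at 24885149 to 24885210 on chromosome 7 with a score of 134. Rps3, which sits where mRNA enters the ribosome, had the widest peak of the family, 216 bp at 99482493 to 99482708 on chromosome 7, with a score of 88.9. Rps10, also at the mRNA entry side, scored 88.3 at 27634329 to 27634418 on chromosome 17. That value, which Rpl24 shared, is held by 22 WT peaks and is the list median. Rps7 scored 78.8 at 28635579 to 28635736 on chromosome 12, and Rps18 scored 77.7 at 33955074 to 33955177 on chromosome 17. Rps27, a zinc finger protein of the small subunit, had the weakest peak of the family, with a score of 54.9 at 90212902 to 90213048 on chromosome 3 (percentile 8.60).

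**Figure D2:**
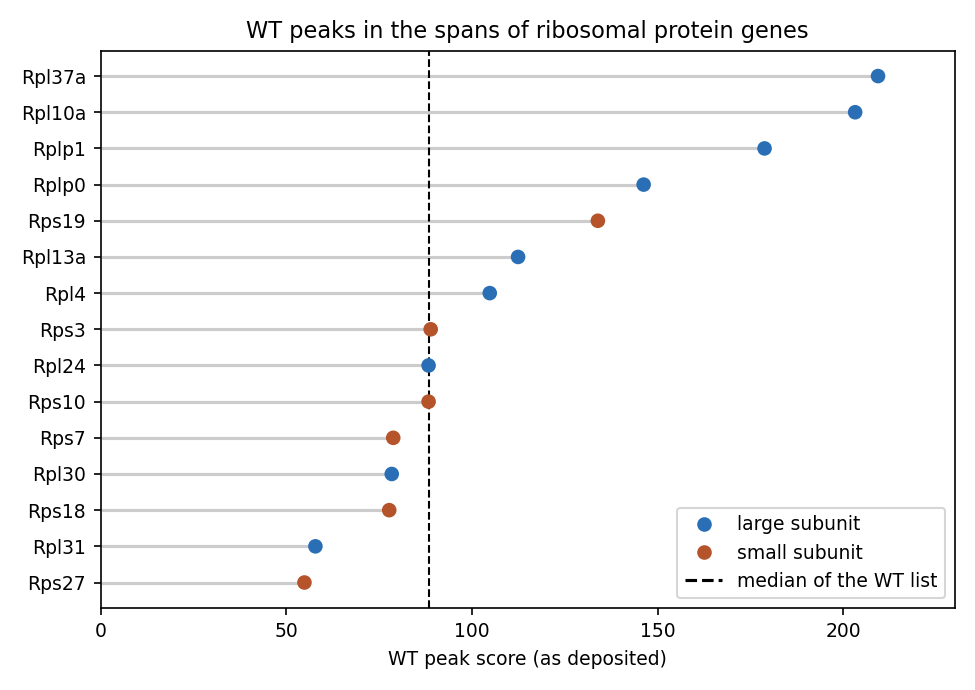
Deposited WT score (horizontal axis) of the peak in each of the 15 ribosomal protein genes that held one, with large subunit genes in blue, small subunit genes in brown and the median of the WT list, 88.3, as a dashed line. Scores run from 54.9 in Rps27 to 209 in Rpl37a, and the 4 highest belong to large subunit genes.

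Large and small subunit genes held peaks in similar shares, 9 of 50 (18%) and 6 of 31 (19.4%). By span length, 4 of the 27 shortest members (592 to 2650 bp) held a WT peak, 4 of the middle 27 (2680 to 4061 bp) and 7 of the longest 27 (4072 to 11774 bp). Members with a peak had a median span of 4061 bp and members without one 3138 bp. None of these splits was tested.

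Where a start was listed, the peaks lay early in the genes but did not cover it. A start and strand were listed for 61 members, 13 of them among the 15 with a peak, and distances are from the outermost listed start. The peak midpoint lay 296 bp after the start in Rps7 and 1889 bp after it in Rpl4, the extremes, with a median of 588 bp. For 10 of the 13 (76.9%) the midpoint was within the first 1 kb of the gene, and 0 of the 13 peaks reached the start itself. For Rplp1, whose peak crosses an end of the span, no strand is listed, so whether that end is the start is not known here. As a share of the span, midpoints lay at 5.79 to 68.5% from the start with a median of 16.2%, and 12 of the 13 (92.3%) were in the first 50% of the span. Rps27, with a span of only 982 bp, was the exception. In Rps19, which has 3 listed starts, the midpoint was 588 bp from the outermost and 267 bp from the nearest, and in Rpl10a 379 and 285 bp.

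The same positions were taken for the 139 WT peaks in 88 other protein-coding genes with a listed strand and spans of at most 5814 bp, the longest span of a member with a peak. Their median distance from the start was 1718 bp, and their median position was 51.7% of the span. Of these genes, 2 are annotated as protein-coding but carry names of the family, Rps27rt (span 374 bp, peak score 139) and Rpl31-ps12 (span 484 bp, peak score 64.6), and without them the medians were 1736 bp and 51.7%. Of these peaks, 47.5% lay in the first 50% of the span and 27.3% in the first 1 kb. Their genes were of similar length, with a median span over peaks of 3847 bp against 4263 bp for the 13. A gene with several peaks enters this comparison repeatedly, the difference was not tested, and the annotation used here gives no exons, so it cannot be said whether the peaks lay in exons or introns.

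**Figure D3:**
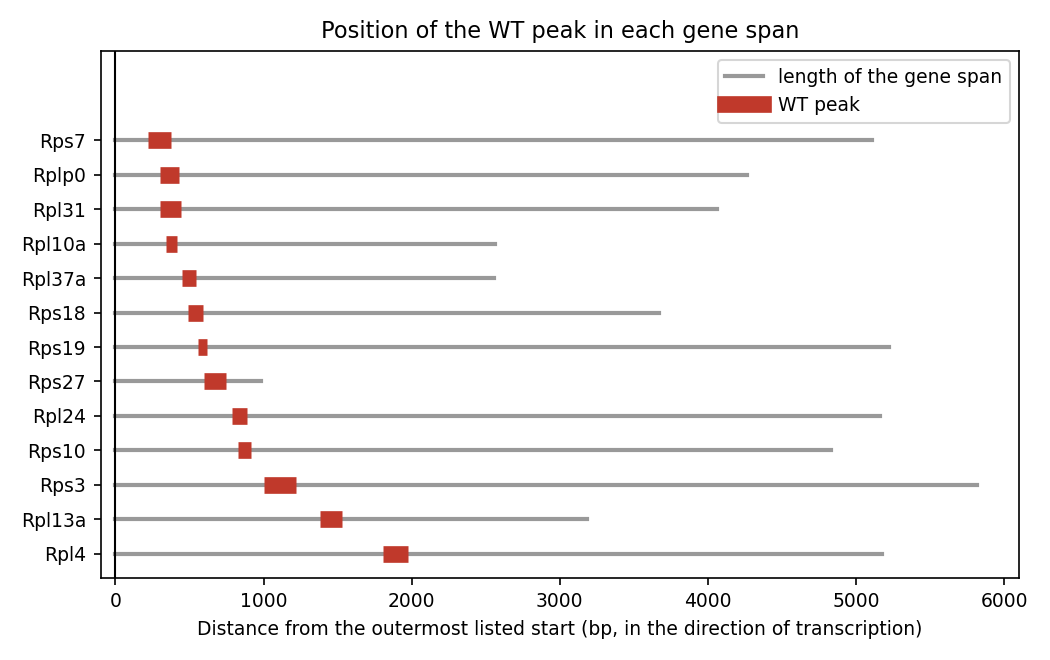
Gene spans (grey) of the 13 members with a WT peak and a listed strand, drawn from the outermost listed start in the direction of transcription, with the WT peak in red; the horizontal axis is in bp. Most peaks sit between 296 and 871 bp after the start, and Rps3, Rpl13a and Rpl4 have theirs beyond 1 kb.

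**Figure D4:**
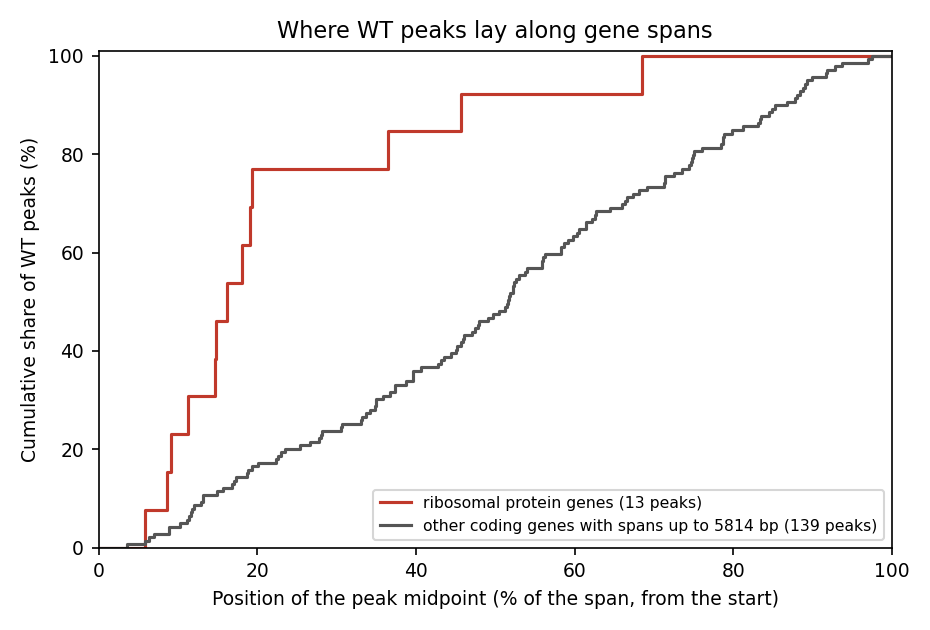
Cumulative percent of WT peaks (vertical axis) by position of the midpoint along the span, in percent from the start (horizontal axis), for the 13 peaks in ribosomal protein genes (red) and the 139 peaks in other protein-coding genes with spans up to 5814 bp (grey). The red line reaches 92.3% at the middle of the span and the grey line 47.5%.

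Small nucleolar RNA genes lay in the spans of 29 members, 4 of them members with a WT peak (Rpl4, Rpl13a, Rpl30 and Rps3). Of all 81 members, 15 held a WT peak, and this split was not tested. None of the 15 peaks overlapped one of these RNA genes.

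Within 10 kb of the span, 18 members (22.2%) had a WT peak, compared with 6.22% of all protein-coding genes and 5.29% of those no longer than the longest member. The 3 members added by the window had their peak in a neighbour. The peak beside Rps29 lay 0.256 kb from its end, in Rn7s1, a gene for the RNA of the signal recognition particle, and scored 308. The peak counted for Rpl10 lay 9.61 kb away, where Emd and the pseudogene Gm14686 overlap, and scored 242. Rps27 had a further WT peak 7.29 kb away in Rab13, with a score of 274, above the 54.9 of the peak in its own span. Of members outside the window, Rps15 came nearest, with a WT peak at 11.5 kb.

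In KO, 2 members (2.47%) had a peak within 10 kb, against 2.34% of all protein-coding genes. The peak near Rpl4 lay 3.98 kb away in Zwilch, a kinetochore gene, and scored 54.6. The peak near Rps4x lay 6.59 kb away in no annotated gene and scored 53.5. Both were below the median of the KO list, 58.1. The next nearest was at Rpl14, at 13.0 kb.

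The other 62 members had no peak within 10 kb in either list. The longest of them were Rps15a (11774 bp), Rpl22 (9647 bp), Rpl5 (8498 bp) and Rpl19 (8491 bp), and the shortest were Rpl32l (592 bp), Rpl10l (1023 bp), Rpl41 (1059 bp) and Rps21 (1066 bp). For the 66 members with no WT peak in the span, the nearest WT peak lay a median of 314 kb away.

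Pseudogene copies of the family also carried WT peaks. The annotation names 315 pseudogenes after 62 of the members, by the member's symbol followed by -ps. Copies under any other symbol were not counted as copies and stay among all pseudogenes. A WT peak midpoint lay in 27 of them (8.57%) and a KO peak in 0, compared with 2.94% and 0.207% of all 10609 pseudogenes. None of the 27 peaks overlapped a KO peak, and the same share over the 405 WT peaks in pseudogene spans was not taken. With a KO peak in only 0.207% of all pseudogenes, a 0 among the copies is not read as a trait of the family. Scores ran from 53.4 to 510 with a median of 99.3, and widths from 79 to 240 bp, on copies of 323 to 1028 bp. Of the 27 copies, 10 also lay within a protein-coding span.

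The copies with a peak came from 13 parent genes, of which 6 held a WT peak themselves. Rps19 had the most, 6 of 13 copies, with the highest score of all 27 at Rps19-ps6 (510, chromosome 12, 110898066 to 110898227), inside Tecpr2. The other 5 Rps19 copies scored 53.4 to 146. Rps18 had a peak on 3 of 5 copies, with scores of 132, 164 and 348, all above the 77.7 of the parent gene. Rpl31 had 3 of 23 copies with scores of 66.4, 97.7 and 113, also above its parent's 57.8. Rpl10a had 2 of 4, and Rpl10a-ps1 scored 204 and Rpl10a-ps4 61.2, beside 203 in the parent. Rps10 had 2 of 4, scoring 165 and 76.9 beside 88.3, and Rps27 2 of 2, scoring 100.4 and 76.6 beside 54.9. Over the 18 copies whose parent held a peak, 12 scored above the parent and 6 below it, 4 of these 6 being Rps19 copies.

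Rpl19, a large subunit gene with no peak of its own, had 3 of 12 copies with a WT peak, scoring 88.3 to 124. The other parents without a peak, Rpl5, Rpl9, Rplp2, Rps12, Rps27a and Rpsa, had 1 copy with a WT peak each. The 15 members with a peak account for 68 copies, of which 18 (26.5%) had a WT peak, and the 66 members without one for 247 copies, of which 9 (3.64%) did. The median number of copies per gene was 2 in both groups. Rpl21 with 15 copies and Rpl7a with 14 had none with a peak. Gene and copy share sequence, and the handling of reads that fit several places is not given in the sources used here, so reads of the gene and of its copies cannot be told apart and each such peak is uncertain in its place.

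**Figure D5:**
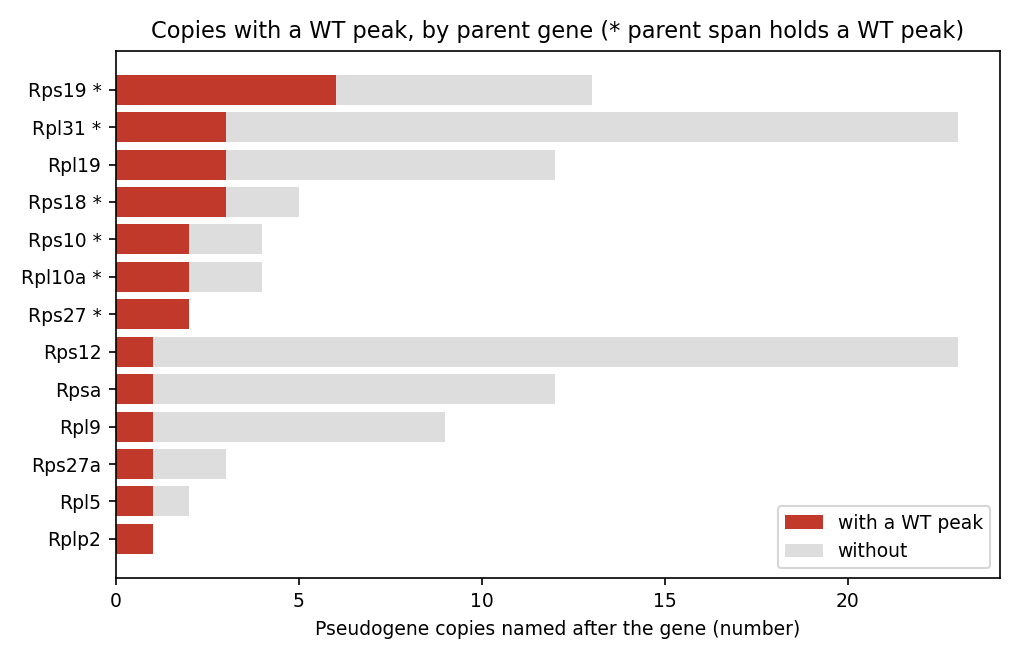
Number of pseudogene copies (horizontal axis) named after each of the 13 parent genes with at least 1 copy holding a WT peak, with copies that hold a WT peak in red and the rest in grey; an asterisk marks parents whose own span holds a WT peak. Rps19 has 6 of 13 copies in red, Rpl31 and Rps12 have 23 copies each with 3 and 1 in red.

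Promoter sequences were compared over 250 bases before to 50 after the outermost start, for the 61 members with an entry and for 17492 protein-coding genes. Rpl30 and Rplp1 had no entry. CTTCCG, on either strand, was found in 41 of 61 member promoters (67.2%) and in 21.5% of all promoters. It was found in 9 of the 13 members with a WT peak (69.2%) and in 32 of 48 without (66.7%). ATGGC was found in 57.4% of member promoters and 39.2% of all. A C at the start followed by at least 4 pyrimidines, the form of the oligopyrimidine tract, was found in 21.3% of members and 2.17% of all promoters. The C had to be the first base at the outermost listed start. A tract that begins at another base was not counted, so this is not the share of genes that carry one. The KLF-like CACCC was found in 55.7% of members and 58.5% of all promoters, in 6 of the 13 members with a peak (46.2%) and 28 of the 48 without (58.3%). The longer KLF-like GGGTGNGG, whose matches also hold a CACCC on the other strand, was found in 7 member promoters (11.5%), 0 of them with a peak, and in 17.7% of all. TATAAA was found in 11.5% of members and 13.3% of all, and CCAAT in 31.1% and 39.2%. Median GC content was 57.0% in members and 56.3% in all. These matches are descriptions of the letters in this window, and the peaks lay farther into the genes.

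Related genes of translation were set beside the family. Over all protein-coding genes, 3.79% held a WT peak in the span and 1.63% a KO peak. Of 78 genes for mitochondrial ribosomal proteins, which build the separate ribosome of that organelle, 1 (1.28%), Mrps28, held a WT peak, with a score of 71.5, and 0 held a KO peak. Of 10 genes listed for translation elongation, 4 held a WT peak: Eef1a1 (highest score 358), Eef2 (336), Eef1g (279) and Eef1b2 (99.3). Eef2k, a kinase that inhibits elongation, held a KO peak with a score of 62.7. Of 16 other genes whose mRNAs are known for a terminal oligopyrimidine tract, 9 held a WT peak, and Hnrnpa1 held 1 in each list. These 16 genes had a longer median span, 8022 bp. Of 24 genes of ribosome biogenesis, 1 held a WT peak, Npm1, with a score of 58.4. Of 10 genes that host small nucleolar RNAs, Eef2 and Tpt1 did. Median spans were 14163.5 bp for the elongation list, 13302.5 bp for ribosome biogenesis and 7690.5 bp for mitochondrial ribosomal proteins. They were 2593.5 bp for the hosts of small nucleolar RNAs and 3175 bp for the family, so the counts are not matched for length. The lists share members, such as Eef2 in 3 of them, and no difference between lists was tested.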

How the data were processed

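The authors deposited 1 peak list per library, with a position, name and score per peak. Bowtie 1.0, SAMtools 0.1.18 and the mouse build mm10 were used, per the submitters' processing notes. Peak names show that MACS made the lists, per the deposited files. The MACS version, control library, settings and handling of repeated reads were not given in the sources used here. Deposited scores start at values that correspond to a p-value of 1e-05 if read as 10 times the negative log10. Scores depend on depth and background, and the lists hold no read counts, so no interval or floor is given.

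Gene spans, gene types and promoters came from RefSeq tables of GRCm38.p6, whose chromosomes carry the same coordinates as mm10. No genome sequence, exons or transcripts were used, so no peak sequence is printed. A peak was assigned by its midpoint, to the own span or within 10 kb, and peaks of both lists were shared at 1 bp of overlap. Peaks off the chromosomes, 73 in WT and 53 in KO, entered no count of genes. With 1 library per group no test of genotype was possible. The members and lists were chosen with earlier results of these data known. Named are the members with a peak within 10 kb, of which 1 is not reported here, the 4 longest and 4 shortest without one, and every parent with a copy holding a peak, with more detail for the 7 that had at least 2 such copies (the rule asked for 6, and ties gave 7). Promoters are printed for the 4 members whose peak lay nearest the outermost listed start. Rplp2, Rpl21, Rpl7a and the scores of further copies were named after their values were seen. Assignment and overlap were checked on simulated peaks. Python 3.11.15, numpy 2.4.6, pandas 2.3.3 and matplotlib 3.10.9 were used. Alternatives covered the gene window, placement, score limit, list size, shared peaks, pseudogenes and membership.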

Additional observations from a re-analysis of the deposited data

How the results depend on the processing

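The count of members with a WT peak in the span, 15, fell to 10 when peaks scoring under their list's median were dropped. It was also 10 with WT cut to the size of the KO list. The members kept were Rpl4, Rpl10a, Rpl13a, Rpl24, Rpl37a, Rplp0, Rplp1, Rps3, Rps10 and Rps19 in both cases. The KO list holds 1153 peaks and the WT list 2251, so both cuts kept nearly the same WT peaks. Their equal outcome is therefore not a separate check. The WT count within 10 kb ranged from 14 to 18 over the alternatives. The KO count within 10 kb, 2, became 0 with the span alone, with 2500 bp or when peaks under the median score were dropped, and 1 with 5000 bp or the nearest gene only. The number of pseudogene copies with a WT peak, 27, fell to 17 when peaks under the median score were dropped and was 28 with 1000 bp added. Shares over all protein-coding genes and all pseudogenes were not taken under these alternatives. The changed counts are therefore not read as traits of the family. Members with a KO peak in the span stayed at 0 in each alternative run, as did overlaps with a KO peak. The deposited lists give no depth, so a lower depth of the KO library and fewer sites cannot be told apart. No paired analysis was possible because each group has 1 library.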
